A study of Mus musculus with 6 samples.

Results

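Collagen genes were taken as all rows of the deposited gene tables whose symbol has the form of a numbered collagen chain, such as Col1a1. The rule found 45 rows for 44 genes among 36557 gene rows, because Col4a6 is listed under 2 gene IDs with identical values. They were compared between aortas of Apoe-/- MiR26b-/- mice, here called knockouts, and Apoe-/- control mice, here called controls. Every mouse therefore lacked Apoe, which leaves cholesterol-rich lipoproteins in the blood and leads to plaque, and every mouse ate a high-fat diet for 4 weeks. RNA came from the aortic arch and thoracic aorta after flushing with saline, in 3 libraries per group. How many animals a library holds was not given in the sources used here, and the p-values therefore speak only of variation from library to library, which may be technical.

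Collagens are the main structural proteins of the arterial wall, built from chains that wind into triple helices. Fibrillar collagens such as types I and III give the wall its tensile strength, and FACIT collagens (fibril-associated collagens with interrupted triple helices) sit on the surface of those fibrils. Type IV collagen forms the network of the basement membrane that surrounds each smooth muscle cell and underlies the endothelium, and types XV and XVIII lie in or beside it. Type VI collagen forms beaded filaments between basement membranes and fibrils. In the artery, smooth muscle cells and adventitial fibroblasts are the main collagen producers.

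The deleted gene, Mir26b, lies on chromosome 1 from 74394310 to 74394394 (GRCm38, plus strand). Its main mature product and that of the related Mir26a-1 are shown because they share a seed, the stretch that pairs with target transcripts. Bases 2 to 8 are in capitals, and the sequences are from RefSeq (GRCm38.p6).
mmu-miR-26b-5p: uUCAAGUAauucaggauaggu
mmu-miR-26a-5p: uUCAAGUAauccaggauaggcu
Matches to this seed were searched on the sense strand of the longest annotated 3′ UTR of each gene (GENCODE vM21, GRCm38). The full match is TACTTGAA, and matches of 7 bases are TACTTGA and ACTTGAA. Of the 42 collagen genes tested for expression, 11 (26.2%) held a match, against 20.9% of 16142 tested genes with a 3′ UTR. TACTTGA, alone or within the full match, was present in 5 of them (11.9%), against 11.1% of all. Those 5 are shown first, then the matches to ACTTGAA in genes called below, each with the match in capitals.
Col1a2: tatttcagaTACTTGAAgaatatga
Col10a1: ttctttaaaTACTTGAAtattcaaa
Col6a6: ttgtatgttTACTTGAcaactcca
Col11a1: tgattgtcaTACTTGAccatccag
Col9a1: cataagtgcTACTTGAcaatcaga
Col18a1: tcctctcccACTTGAActggccag
Col5a1: aaaaattcaACTTGAAgatatgta
Col4a3, first match: ttgtgtggaACTTGAActacaagc
Col4a3, second match: tcaataaccACTTGAAatttattt

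The Col1a2 match lay at chr6:4541202-4541209 on the plus strand and the Col10a1 match at chr10:34396518-34396525 on the plus strand. The Col6a6 match lay at chr9:105689308-105689314 on the minus strand. Of the 11 collagen genes with a match, 1 (Col6a6) was higher and 3 (Col4a3, Col5a1 and Col18a1) were lower in knockouts, or 9.09% and 27.3%, against 5.7% and 5.61% of all tested genes with a match. Of the 31 without a match, 4 were higher and 8 were lower, or 12.9% and 25.8%, against 6.91% and 3.59% of all tested genes without one. The median log2 difference was 0.09 with a match and 0.00 without, and among all tested genes it was -0.03 with a match and 0.00 without. Of the 5 collagen genes with TACTTGA, 1 was higher and 0 were lower, or 20% and 0%, against 5.34% and 5.56% of all tested genes with it. Of the 37 without TACTTGA, 4 were higher and 11 were lower, or 10.8% and 29.7%, against 6.83% and 3.82% of all tested genes without it. A match is a description of the letters and not evidence of binding.

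The 6 libraries held between 51634139 and 54817547 estimated counts. CPM below stands for counts scaled to library size and by TMM factors. Levels are in CPM or in the authors' rescaled TPM, which also accounts for transcript length and is used to compare genes. Differences are log2 of knockouts over controls from edgeR's quasi-likelihood test over 17392 gene rows, and a gene was called at a Benjamini-Hochberg adjusted p under 0.05. The smooth muscle genes Acta2 and Myh11 were abundant in both groups, at mean TPM of 8752 and 1497 in knockouts and 13280 and 2142 in controls. No check of the Mir26b deletion could be made from these tables, in which 0 rows carry a microRNA symbol. On the first principal component of all tested genes (61.9% of the variance), knockout replicates 1 and 2 stood at 47.05 and 55.72 and knockout replicate 3 at 0.97, whereas the controls stood between -45.35 and -25.42.

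The make-up of collagen RNA differed between the groups, while its total overlapped. Basement membrane and type VI chains took a smaller share in knockouts, and fibrillar and FACIT chains took a larger share. Summed collagen TPM was 5353 ± 359 in knockouts and 5143 ± 328 in controls (SD, n = 3 each). Of the 42 tested genes, 5 rose and 11 fell in knockouts by edgeR, or 11.9% and 26.2%, against 6.50% and 3.84% of all tested rows. Every knockout library stood above every control library for 9 genes and below for 12, or 21.4% and 28.6%, against 18.9% and 17.2% of all tested rows. The median log2 difference was 0.02 over the collagen genes and 0.00 over all tested rows. The untested genes, Col9a2 and Col17a1, had at most 10.7 counts in any library.

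Among the 18 collagen genes with a mean of at least 10 TPM in controls, 10 fell and 1 rose by edgeR. These were 55.6% and 5.56%, against 3.84% and 6.50% of all tested rows, to which no such cut was applied. The cut used controls alone, which favors genes that are lower in knockouts. It left out Col8a1 and Col6a6, which were called higher and reached a mean of 10 TPM only in knockouts. The contrast between falls and rises in this set therefore depends in part on the cut. Of the 11 tested genes with a mean under 1 TPM in both groups, edgeR called 0, and 4 had an unadjusted p under 0.05, as did 30.7% of all rows. DESeq2 called 4 of them higher, Col2a1, Col6a4, Col10a1 and Col24a1, against 13.0% of all rows. Without knockout replicate 2, DESeq2 called 0 of these 4, with adjusted p of 0.373 for Col2a1, 0.207 for Col6a4, 0.157 for Col10a1 and 0.109 for Col24a1, and the fold of Col10a1 was 2.68 in place of 4.72. Without knockout replicate 1 it called Col10a1 alone, without control replicate 1 Col10a1 and Col24a1, without control replicate 2 all but Col10a1, and without control replicate 3 Col24a1 alone.

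**Figure D1:**
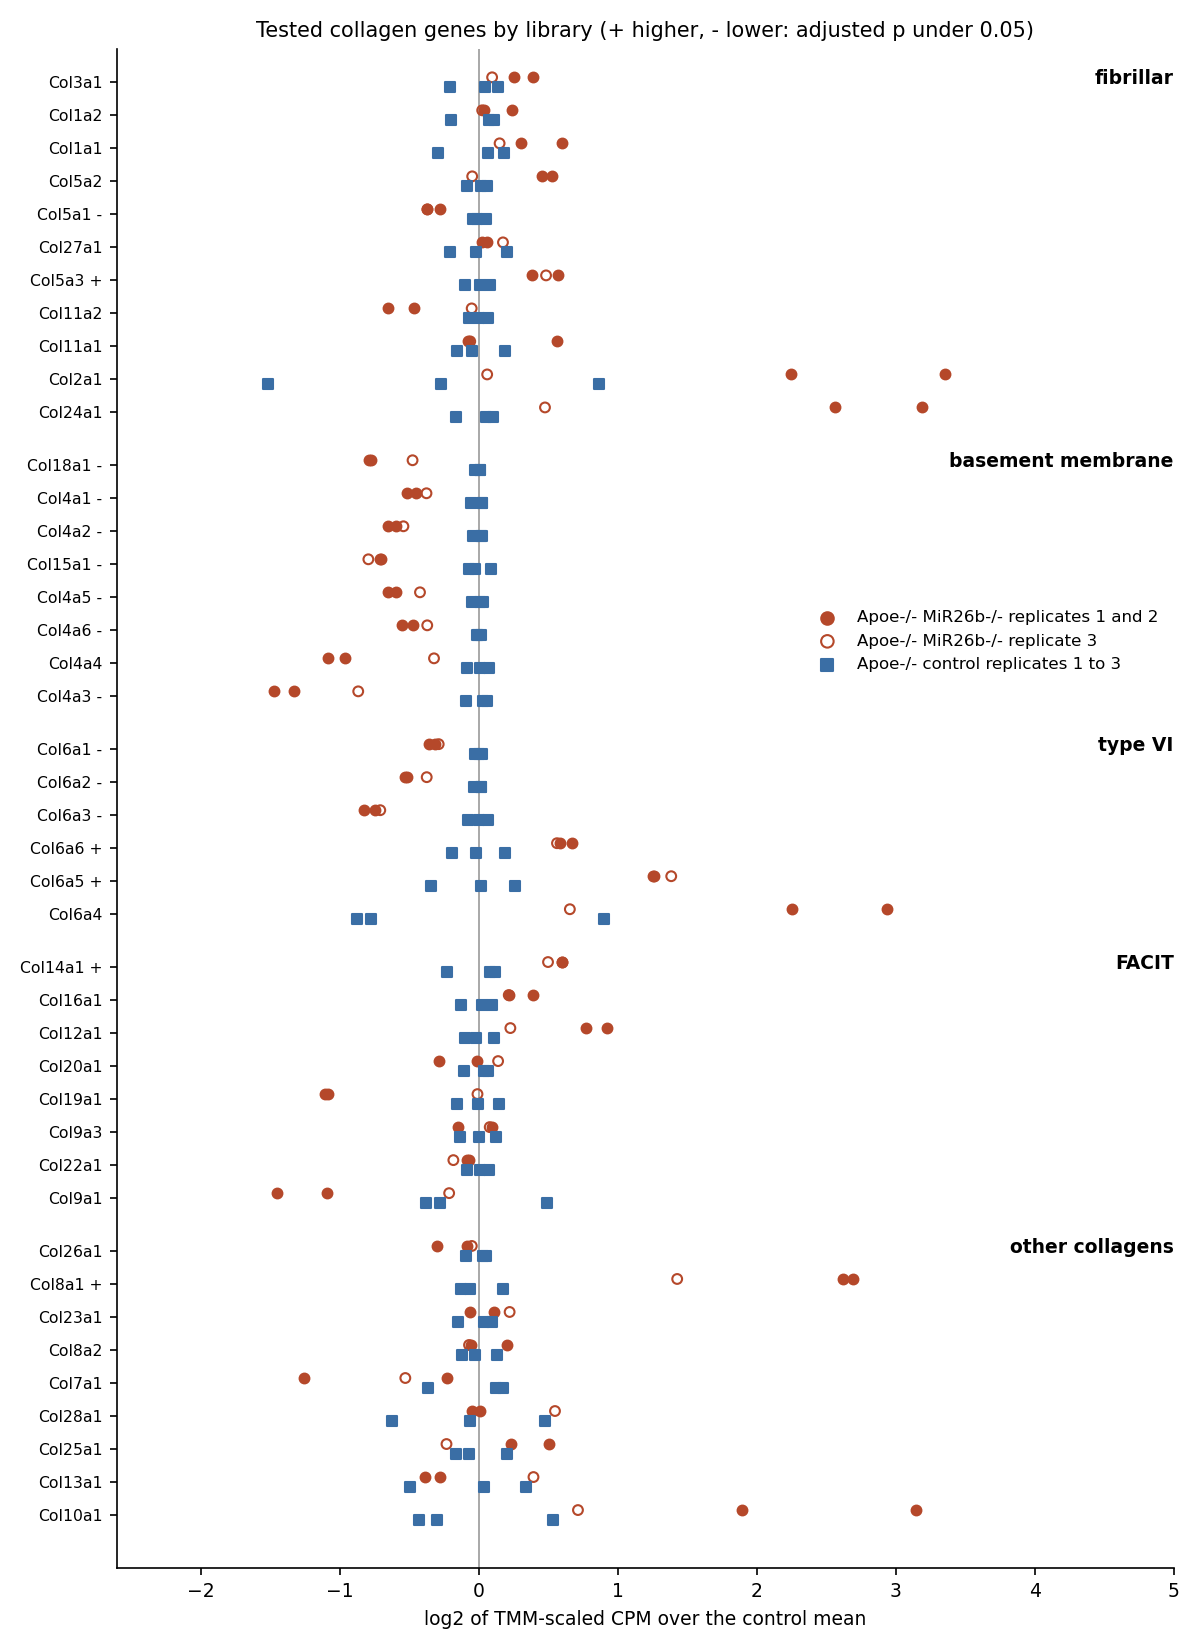
Each tested collagen gene by library, as log2 of TMM-scaled CPM over the control mean, with knockouts (circles, replicate 3 open) above controls (squares) in each row and genes grouped by class. A plus or minus sign after the name marks the 5 genes called higher and the 11 called lower. All 8 basement membrane genes lie left of the controls, against 17.2% of all tested rows.

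The calls depended on which libraries entered edgeR. Without control replicate 1, control replicate 3 or knockout replicate 1 it called 0 collagen genes, while 22, 21 and 23 of them had an unadjusted p under 0.05, as did 22.9%, 22.8% and 21.2% of all rows. Of all rows it then called 0%, 0% and 0.0396% as higher, and 0%, 0% and 0.0283% as lower. DESeq2 on the same libraries called 8, 6 and 6 collagen genes higher, against 9.25%, 9.21% and 7.34% of all rows, and 12, 11 and 11 lower, against 5.34%, 4.91% and 5.25%.

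Without knockout replicate 2 or control replicate 2, edgeR called 0 higher collagens, against 0.227% and 0.293% of all rows, and 21 and 23 collagens had an unadjusted p under 0.05, as did 21.0% and 26.1% of all rows. It called 2 lower collagens in each case, Col6a3 and Col15a1, against 0.125% and 0.107% of all rows. DESeq2 called 5 and 10 higher there, against 7.30% and 11.3% of all rows, and 12 lower in each, against 5.36% and 7.13%. Without knockout replicate 3, edgeR called 12 higher and 14 lower collagens, against 17.2% and 11.4% of all rows, and DESeq2 called 14 of each, against 17.7% and 14.4%.

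In all 6 libraries DESeq2 called 11 higher and 12 lower collagens, against 13.0% and 8.46% of all rows. Each of the 16 collagen genes called by edgeR was also called by DESeq2 in all 6 libraries and with any 1 library left out. With the mean log2 CPM of the fat markers as a covariate, edgeR called 1 higher and 6 lower collagens, against 0.638% and 0.552% of all rows, and Col14a1, Col18a1, Col4a1, Col5a1, Col5a3, Col6a1, Col6a2, Col6a6 and Col8a1 were not called.

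In shares of collagen TPM, no class overlapped between the groups. Basement membrane chains made 16.8%, 15.5% and 19.5% in the knockouts, against 24.8%, 24.9% and 28.2% in the controls. Type VI chains made 9.50%, 9.01% and 10.5% in the knockouts, against 12.0%, 12.5% and 13.8% in the controls. Fibrillar chains made 66.3%, 68.6% and 63.1% in the knockouts, against 58.3%, 57.6% and 53.5% in the controls. These shares sum to the whole, so a smaller share of one class enlarges the others. FACIT chains made 5.72% ± 0.172 in knockouts and 3.97% ± 0.259 in controls (SD, n = 3 each). With 3 libraries a side an exact permutation test cannot go below 0.10, so these shares were not tested.

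**Figure D2:**
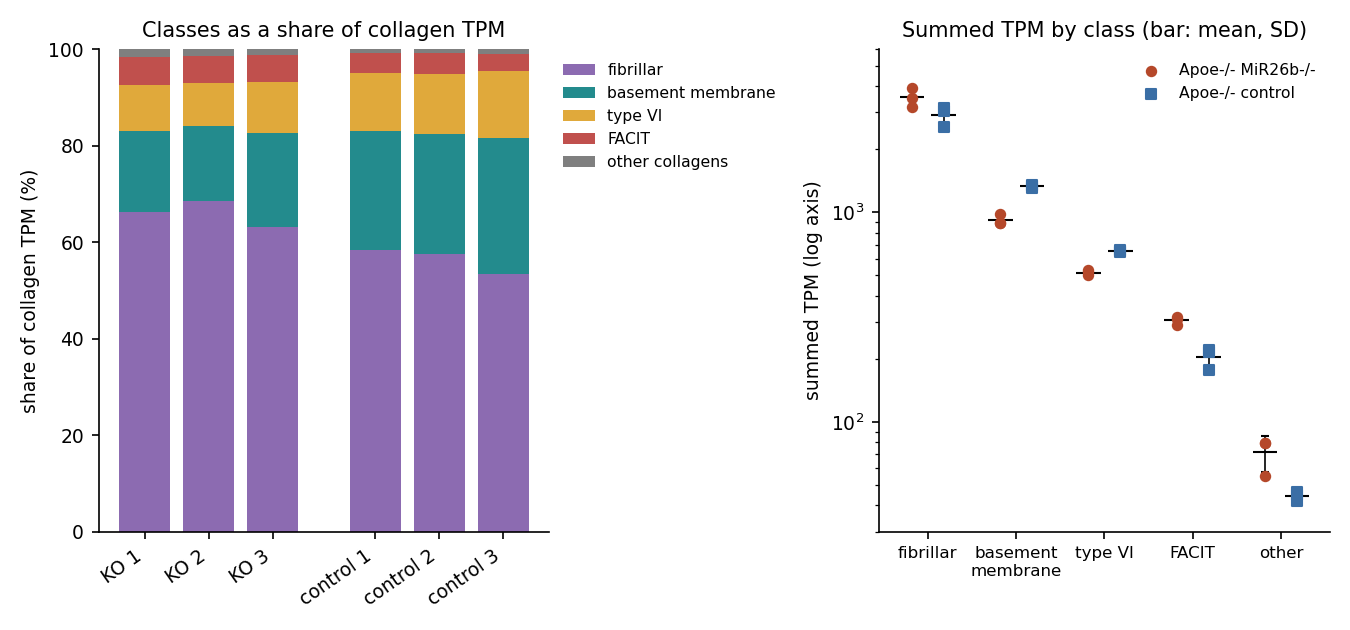
Left, collagen classes as a percentage of collagen TPM in knockout libraries 1 to 3 (KO) and control libraries 1 to 3; right, summed TPM of each class on a log axis, with points for libraries and bars for the mean and SD. Basement membrane chains summed to 921 ± 53.8 TPM in knockouts and 1332 ± 18.1 TPM in controls, and fibrillar chains to 3538 ± 382 TPM in knockouts and 2909 ± 315 TPM in controls.

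All 8 basement membrane collagens were lower in every knockout library than in any control library, against 17.2% of all tested rows. By the edgeR test 7 of them fell, against 3.84% of all tested rows. The class had a median log2 difference of -0.63. Col18a1 (chr10:77052178-77166548, minus strand), whose protein carries the fragment endostatin, was the most abundant of the class. It had 933.7, 921.1 and 1146 CPM in the knockouts, against 1568, 1602 and 1608 CPM in the controls. Knockout replicate 3 lay nearest to the controls, and the fall was 1.59-fold (log2 difference -0.67, SE 0.10, adjusted p = 0.0245). Col15a1 (chr4:47208161-47313167, plus strand), which encodes the related type XV chain, had 289.5, 288.6 and 272.3 CPM in the knockouts and 464.0, 450.4 and 501.2 CPM in the controls. Here the 3 knockouts lay close together, and the log2 difference was -0.74 (SE 0.06, adjusted p = 0.00911).

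Col4a1 and Col4a2 encode the chains of the most widespread type IV network and lie head to head on chromosome 8, with annotated starts that overlap by 22 bases. Col4a1 (chr8:11198423-11312826, minus strand) had 792.7, 826.4 and 872.9 CPM in the knockouts and 1152, 1091 and 1153 CPM in the controls. Col4a2 (chr8:11312805-11449287, plus strand) had 536.0, 559.2 and 579.9 CPM in the knockouts and 856.1, 820.0 and 855.2 CPM in the controls. Both fell, by 0.45 (SE 0.07, adjusted p = 0.0246) for Col4a1 and by 0.60 (SE 0.06, adjusted p = 0.0112) for Col4a2 on the log2 scale. The ratio of Col4a1 to Col4a2 in TPM was 1.43, 1.45 and 1.50 in the knockouts and 1.33, 1.28 and 1.30 in the controls, which did not overlap and was not tested. The stretch that the 2 RefSeq promoter windows share is shown because both genes start within it. It is chr8:11312777-11312854 (GRCm38.p6, plus strand), with the bases from one start to the other, which both genes hold, in capitals.
Col4a1 and Col4a2: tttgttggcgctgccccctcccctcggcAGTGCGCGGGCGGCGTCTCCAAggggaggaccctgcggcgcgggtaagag
Its GC content was 73.1%. The GC box GGGCGG, searched on both strands, was found 1 time in the Col4a1 window and 3 times in the Col4a2 window, and 35.7% of 32851 promoter windows hold it. The TATA box letters TATAAA were in neither window, and 13.6% of windows hold them.

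The other type IV chains are also arranged as head-to-head pairs. Col4a5 and Col4a6, whose chains form a network around smooth muscle, lie 1308 bases apart on chromosome X. Col4a5 had 310.1, 297.9 and 350.2 CPM in the knockouts and 478.8, 455.0 and 473.4 CPM in the controls, and fell by 0.55 on the log2 scale (SE 0.08, adjusted p = 0.0212). Each of the 2 Col4a6 rows had 105.0, 99.4 and 112.7 CPM in the knockouts and 147.1, 145.1 and 144.6 CPM in the controls. Col4a6 fell by 0.46 on the log2 scale (SE 0.06, adjusted p = 0.0177). Whether its reads were split between the 2 rows or 1 estimate was written in both is not known, so its level is uncertain. The class sums and the ratio that follows add the 2 rows. The ratio of Col4a5 to Col4a6 in TPM overlapped, at 1.75, 1.83 and 1.81 in the knockouts and 1.80, 1.78 and 1.77 in the controls.

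Col4a3 and Col4a4, known for their part in the kidney filter, lie 71 bases apart on chromosome 1 and were the least abundant chains of the class. Col4a3 (chr1:82586921-82722059, plus strand) had 15.4, 13.9 and 21.2 CPM in the knockouts and 39.4, 36.2 and 40.3 CPM in the controls. It fell 2.29-fold (log2 difference -1.20, SE 0.16, adjusted p = 0.0186). Col4a4 (chr1:82448423-82586849, minus strand) had 31.0, 28.5 and 48.3 CPM in the knockouts and 56.8, 60.7 and 63.5 CPM in the controls. It did not pass edgeR (log2 difference -0.75, SE 0.20, adjusted p = 0.0577), and its adjusted p was 0.00235 by DESeq2 and 0.000456 by edgeR without knockout replicate 3. Both genes lie close to the deleted Mir26b, at 8.19 Mb for Col4a3 and 8.05 Mb for Col4a4, and the part of the flanking genome in their lower levels was not tested.

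**Figure D3:**
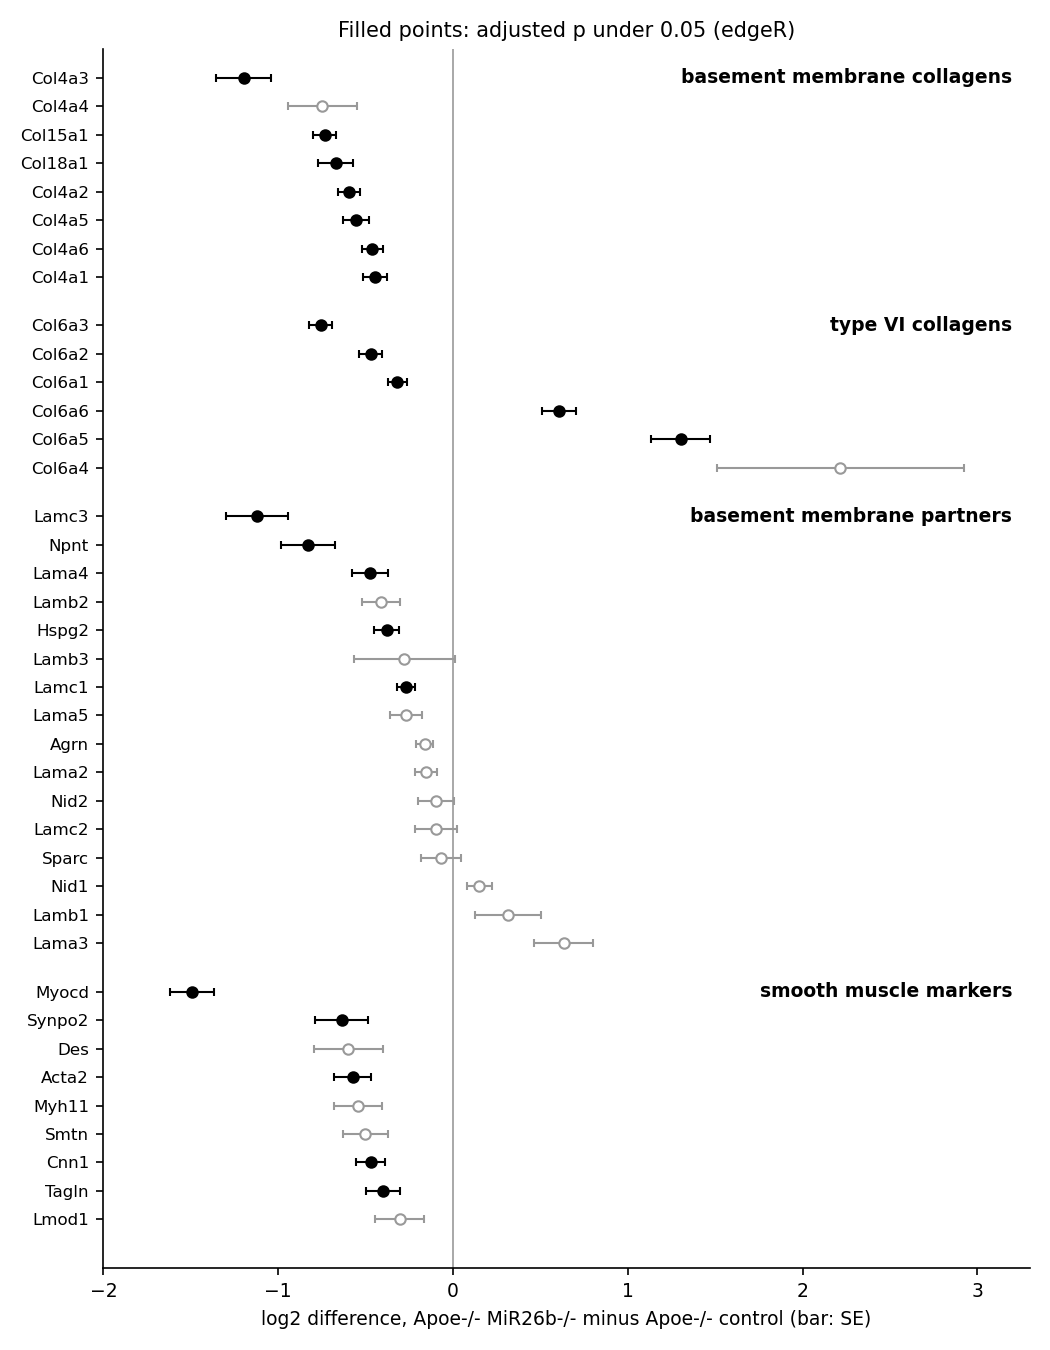
Log2 difference of knockouts minus controls with its SE (bars) for basement membrane collagens, type VI collagens, basement membrane partners and smooth muscle markers, from edgeR. Filled points passed the adjusted p threshold. The basement membrane collagens lie between -1.20 for Col4a3 and -0.45 for Col4a1, and the type VI genes lie on both sides of 0.

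Type VI collagen split by chain. Col6a1, Col6a2 and Col6a3, which encode the chains of the common type VI molecule, fell, and Col6a5 and Col6a6, whose chains can take the place of the Col6a3 chain, rose. Col6a3 (chr1:90765923-90843971, minus strand), also near Mir26b at 16.4 Mb, had 325.7, 342.8 and 352.4 CPM in the knockouts and 577.8, 546.3 and 602.1 CPM in the controls. Its log2 difference was -0.76 (SE 0.07, adjusted p = 0.0090). Col6a2 had 435.5, 439.0 and 484.5 CPM in the knockouts and 613.1, 633.9 and 635.7 CPM in the controls (log2 difference -0.47, SE 0.07, adjusted p = 0.0216). Col6a1 had 535.6, 552.8 and 562.6 CPM in the knockouts and 675.1, 696.6 and 687.8 CPM in the controls (log2 difference -0.32, SE 0.06, adjusted p = 0.0304). The groups did not overlap for any of these 3 genes.

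Col6a6 had 61.0, 57.3 and 56.6 CPM in the knockouts and 43.6, 37.8 and 33.5 CPM in the controls, a 1.52-fold rise (log2 difference 0.61, SE 0.10, adjusted p = 0.0278). Col6a5 had 6.08, 6.13 and 6.68 CPM in the knockouts and 3.07, 2.58 and 2.01 CPM in the controls, a 2.47-fold rise (log2 difference 1.30, SE 0.17, adjusted p = 0.0186). For both genes the 3 knockouts were tightly grouped above the controls in CPM. In TPM, Col6a5 was less tightly grouped, at 1.024, 1.337 and 1.811 in the knockouts and 0.830, 0.587 and 0.377 in the controls. Col6a5, Col6a6 and Col6a4 lie in a row on chromosome 9, and Col6a4 did not pass (log2 difference 2.22, SE 0.71, adjusted p = 0.0908), with 0.613 CPM in knockout replicate 3 and 0.726 CPM in control replicate 2. The ratio of Col6a6 to Col6a3 in TPM was 0.101, 0.0846 and 0.0878 in the knockouts and 0.0530, 0.0452 and 0.0403 in the controls. Col6a3 was the more abundant of the pair in every library. On log2(TPM + 1) with limma, Col6a5 was not called.

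Counts and TPM gave different sizes for Col6a3. Dividing its counts by its TPM, scaled to each library's median gene, gives the mean length of the transcripts to which its reads were assigned. This relative length was 2.20, 2.08 and 2.26 in the knockouts and 2.911, 2.713 and 2.995 in the controls, so the knockouts averaged 75.9% of the controls. Of 14207 tested genes with at least 1 TPM, 0.394% had a value at or below this, and the median was 99.6%. On TPM, Col6a3 averaged 112.7 ± 5.78 in knockouts and 142.7 ± 0.626 in controls, and limma on log2(TPM + 1) gave a log2 difference of -0.34 (adjusted p = 0.0314). Among tested collagens with at least 1 TPM, Col15a1 was next, with a relative length of 1.76, 1.64 and 1.80 in the knockouts and 2.05, 1.95 and 2.12 in the controls, or 84.7%. Its log2 difference on that scale was -0.47 (adjusted p = 0.0255). Col6a1 stood at 99.2%.

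**Figure D4:**
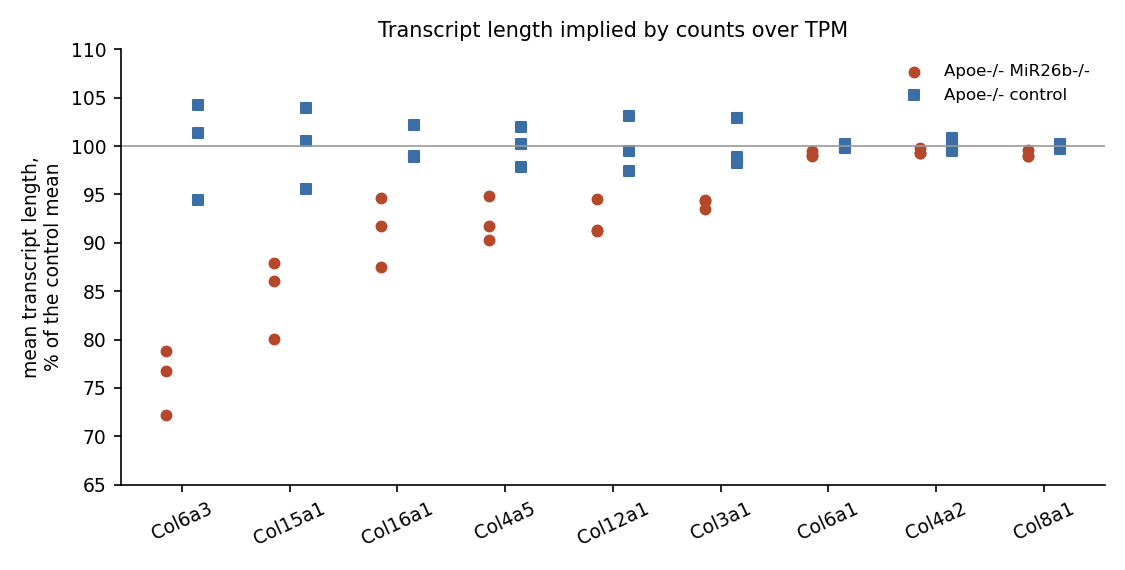
Relative transcript length (counts over TPM, as a percentage of the control mean) of 9 collagen genes in each knockout library (circles) and control library (squares); the vertical axis does not start at 0. Col6a3 and Col15a1 average 75.9% and 84.7% of the controls in knockouts, and Col6a1 averages 99.2%.

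The major fibrillar collagens did not pass the test, and 2 chains of type V moved in opposite directions. Col3a1, the type III chain and the most abundant collagen here, had 4929, 5433 and 4424 CPM in the knockouts and 4565, 4260 and 3581 CPM in the controls (log2 difference 0.25, SE 0.13, adjusted p = 0.231). Col1a1, a type I chain, had 1907, 2336 and 1711 CPM in the knockouts and 1750, 1613 and 1260 CPM in the controls (0.37, SE 0.16, adjusted p = 0.187). Col1a2, the other type I chain and the holder of a full seed match, had 2747, 3153 and 2721 CPM in the knockouts and 2880, 2811 and 2328 CPM in the controls (0.10, SE 0.11, adjusted p = 0.572). The groups overlapped for all 3. The ratio of Col1a1 to Col1a2 in TPM did not overlap, at 0.612, 0.651 and 0.553 in the knockouts and 0.530, 0.499 and 0.471 in the controls, and was not tested.

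Type V collagen starts the assembly of type I and III fibrils and limits their width. Col5a1 had 492.9, 525.9 and 494.6 CPM in the knockouts and 634.5, 620.0 and 661.0 CPM in the controls, and fell by 0.34 on the log2 scale (SE 0.06, adjusted p = 0.0312). Col5a3, the least abundant type V chain, had 26.5, 30.1 and 28.3 CPM in the knockouts and 20.4, 21.5 and 18.9 CPM in the controls, a 1.40-fold rise (log2 difference 0.48, SE 0.08, adjusted p = 0.0267). Neither gene overlapped between groups. Limma on log2(TPM + 1) did not call Col5a3. In TPM the ratio of Col5a3 to Col5a1 was 0.0747, 0.0769 and 0.0784 in the knockouts and 0.0449, 0.0476 and 0.0395 in the controls. Col5a2, the third chain, overlapped (0.33, SE 0.15, adjusted p = 0.192). The 9 uncalled fibrillar genes ranged from -0.37 for Col11a2 to 2.43 for Col24a1, and Col24a1 and Col2a1 averaged below 1 TPM in both groups.

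Col14a1 was the 1 FACIT collagen that rose. It encodes a fibril-surface collagen that is widely used as a fibroblast marker. It had 738.7, 738.4 and 690.2 CPM in the knockouts and 517.2, 530.9 and 416.8 CPM in the controls, a 1.48-fold rise (log2 difference 0.57, SE 0.10, adjusted p = 0.0322). Col12a1, its close relative, had 42.1, 46.7 and 28.8 CPM in the knockouts and 24.3, 26.6 and 23.0 CPM in the controls. It did not pass edgeR (0.67, SE 0.17, adjusted p = 0.0569), and DESeq2 gave an adjusted p of 0.00312. Col16a1 had 66.9, 75.1 and 66.7 CPM in the knockouts and 58.3, 61.4 and 52.4 CPM in the controls (0.28, SE 0.08, adjusted p = 0.0697 by edgeR and 0.0289 by DESeq2). Neither Col12a1 nor Col16a1 overlapped between groups, and the other 5 tested FACIT genes did.

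Col8a1 showed the largest fold among the called collagens. It encodes a short-chain collagen that forms a network and is known to be made by smooth muscle cells of injured arteries. It had 147.6, 140.6 and 61.6 CPM in the knockouts and 25.8, 21.0 and 21.9 CPM in the controls. Every knockout stood above the controls, and knockout replicate 3 lay between the other knockouts and the controls. The rise was 5.10-fold (log2 difference 2.35, SE 0.33, adjusted p = 0.0218), and 6.29-fold without knockout replicate 3. Col8a2, the other type VIII chain, did not pass (0.04, SE 0.13, adjusted p = 0.881), so the ratio of Col8a1 to Col8a2 in TPM was 25.2, 20.1 and 10.7 in the knockouts and 3.79, 3.14 and 3.92 in the controls. Col8a1 had an adjusted p of 0.052 with the fat markers as a covariate.

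The remaining collagens of that class did not pass the test. Col26a1 had 5.47, 6.34 and 6.49 CPM in the knockouts and 6.96, 6.88 and 6.31 CPM in the controls (-0.14, SE 0.11, adjusted p = 0.436). Col23a1, a membrane-bound collagen, had 16.8, 14.9 and 18.2 CPM in the knockouts and 14.03, 16.62 and 16.00 CPM in the controls (0.09, SE 0.10, adjusted p = 0.578). Both overlapped. Col10a1, known from growing cartilage and the other holder of a full seed match, averaged 0.689 ± 0.539 TPM in knockouts and 0.143 ± 0.0560 TPM in controls, with no overlap in CPM (2.24, SE 0.65, adjusted p = 0.0735).

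Knockout replicate 3 stood near 0 on the first component. Its shift from the control mean was a median 80.4% of that of knockout replicates 1 and 2 over the 11 lower collagens, and 75.9% over all lower genes. Over the 5 higher collagens the median was 87.8%, with 31.9% for Col8a1 and 116% for Col6a5, and over all higher genes it was 41.9%. A call is harder to reach where replicate 3 moves little, so these medians come from selected genes. The shift was 39.3% for Col4a4, 10.6% for Col11a2 and 1.08% for Col19a1, which were not called, yet Col8a1 was called at 31.9%.

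Cell type markers also differed between the groups. Smooth muscle markers summed to between 17560 and 20450 TPM in knockouts and between 25380 and 29520 TPM in controls, and 5 of 9 fell. Fibroblast markers summed to between 4701 and 5679 TPM in knockouts and between 3475 and 3714 TPM in controls, and 4 of 10 rose. Macrophage markers summed to between 1923 and 5338 TPM in knockouts and between 767.6 and 976.7 TPM in controls, and all 10 rose, with the lowest knockout sum in replicate 3. Over all tested rows, edgeR called 6.50% higher and 3.84% lower. In bulk tissue, fewer cells of a type and less RNA per cell cannot be told apart, and the part of these markers in the collagen differences was not tested.

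Other markers moved less evenly. Over all tested rows edgeR called 6.50% higher and 3.84% lower, DESeq2 13.0% and 8.46%, and 30.7% had an unadjusted p under 0.05 in edgeR. Endothelial markers summed to between 889.8 and 1013 TPM in knockouts and between 746.5 and 903.6 TPM in controls, and 3 of 9 rose. Fat markers ranged from 1202 to 4229 TPM in knockouts and from 1937 to 5023 TPM in controls, with 0 of 12 called by edgeR or DESeq2 and 0 at an unadjusted p under 0.05. Cartilage markers summed to between 43.1 and 82.7 TPM in knockouts and between 39.2 and 46.2 TPM in controls, and 1 of 7 tested (Sox9) rose. Striated muscle markers (0 of 10 tested called by edgeR, 1 by DESeq2, and 1 at an unadjusted p under 0.05), mesothelial markers (0 of 7 by each of these) and Schwann cell markers (1 of 9 fell) summed to at most 43.6, 36.4 and 251 TPM in knockouts and at most 35.2, 71.4 and 242.1 TPM in controls. The part of these markers in the collagen differences was not tested.

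Genes that make, trim and degrade collagen were taken as lists by role. Of 23 tested folding and secretion genes, 4 fell and 0 rose by edgeR, against 3.84% and 6.50% of all rows. DESeq2 called 4 lower and 2 higher, against 8.46% and 13.0% of all rows. At an unadjusted p under 0.05 there were 5 lower and 2 higher, against 13.2% and 17.5%. The median log2 difference was -0.03, against 0.00 over all tested rows. P3h2, a prolyl 3-hydroxylase, had 29.0, 30.2 and 42.2 CPM in the knockouts and 71.7, 66.3 and 85.9 CPM in the controls (log2 difference -1.14, SE 0.17, adjusted p = 0.0240). The others were Tmem38b (-0.41, adjusted p = 0.0188), P4ha2, a subunit of prolyl 4-hydroxylase (-0.34, adjusted p = 0.0300), and Sec23a of the secretory coat (-0.31, adjusted p = 0.0328). Of 15 propeptide cleavage and cross-linking genes, 0 passed edgeR, 3 passed DESeq2 (1 higher and 2 lower) and 3 had an unadjusted p under 0.05. Over all rows DESeq2 called 13.0% higher and 8.46% lower, and 30.7% had an unadjusted p under 0.05 in edgeR. The median log2 difference of the list was 0.02. The enhancer of propeptide cleavage Pcolce (0.39, adjusted p = 0.0564) and the cross-linking enzyme Loxl1 (-0.20, adjusted p = 0.0692) were among the lowest in p. So was Pcolce2, in the opposite direction to Pcolce (-0.38, adjusted p = 0.0694).

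Of 13 collagen cleavage and uptake genes, 6 rose and 0 fell by edgeR, against 6.50% and 3.84% of all rows. DESeq2 called 8 higher and 0 lower, against 13.0% and 8.46% of all rows. At an unadjusted p under 0.05 there were 11 higher and 0 lower, against 17.5% and 13.2% of all rows. The median log2 difference was 0.75. Mmp13, an interstitial collagenase, had 10.4, 10.3 and 2.62 CPM in the knockouts and 1.16, 1.12 and 1.10 CPM in the controls, a 6.87-fold rise (adjusted p = 0.0325). Ctsk, a lysosomal collagenase, rose 1.68-fold (adjusted p = 0.0381), the uptake receptor Mrc1 rose 2.07-fold (adjusted p = 0.0390), and Mmp2, which cleaves type IV collagen, rose 1.66-fold (adjusted p = 0.0409). Mrc1 and several cathepsins are also made by macrophages, whose markers rose in the same libraries, and their part was not tested.

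Of 12 collagen receptors, 2 rose and 3 fell by edgeR, against 6.50% and 3.84% of all rows, with a median of -0.08. DESeq2 called 3 higher and 4 lower, against 13.0% and 8.46% of all rows. Lair1, an inhibitory receptor of immune cells, had 21.5, 25.9 and 11.6 CPM in the knockouts and 4.37, 5.22 and 4.12 CPM in the controls, a 4.30-fold rise (adjusted p = 0.0218). Itga2, an integrin chain, rose 2.25-fold (adjusted p = 0.0325). Cspg4, a proteoglycan of mural cells that binds type VI collagen, fell by 0.55 (adjusted p = 0.0241), and the integrin chain Itgb1 fell by 0.37 (adjusted p = 0.0455) on the log2 scale.

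Of 16 tested basement membrane partners, 5 fell and 0 rose by edgeR, against 3.84% and 6.50% of all rows, with a median of -0.21. By DESeq2 8 fell and 1 rose, against 8.46% and 13.0% of all rows, and at an unadjusted p under 0.05 there were 9 lower and 1 higher, against 13.2% and 17.5%. Lamc3, a laminin chain, had 33.7, 27.9 and 46.4 CPM in the knockouts and 82.7, 79.6 and 72.8 CPM in the controls (log2 difference -1.12, SE 0.18, adjusted p = 0.0271). Npnt, an integrin ligand of the basement membrane, had 747.2, 713.1 and 1022 CPM in the knockouts and 1418, 1376 and 1618 CPM in the controls (-0.83, SE 0.15, adjusted p = 0.0322). Hspg2, the proteoglycan perlecan, had 1026, 1068 and 1155 CPM in the knockouts and 1370, 1424 and 1428 CPM in the controls (-0.38, SE 0.07, adjusted p = 0.0325). In CPM the groups did not overlap for any of these 3 genes. Lamc1 fell by 0.27 on the log2 scale (adjusted p = 0.0325). In TPM, Hspg2 overlapped, at 268.9, 296.6 and 300.3 in the knockouts and 298, 323.8 and 297.7 in the controls. Lamc1 also overlapped in TPM, at 70.8, 73.3 and 71.1 in the knockouts and 73.5, 76.0 and 71.5 in the controls. Lamc3 and Npnt did not overlap in TPM.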

How the data were processed

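RNA-seq of mouse aorta was compared between 3 Apoe-/- MiR26b-/- and 3 Apoe-/- libraries. The tools named per the submitters' processing notes are kallisto 0.46.2, Trim Galore 0.6.5 and FastQC 0.11.8, with the build GRCm38. The authors deposited estimated counts per gene and a rescaled TPM, treated here as a signal because its columns do not share one fixed sum. Whether counting used strand was not given in the sources used here.

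Estimated counts were rounded, filtered with filterByExpr (minimum count 10), scaled by TMM and fitted over all rows in R 4.3.3 with the quasi-likelihood model of edgeR 4.0.16, whose F-test p-values received Benjamini-Hochberg adjustment. SE is the log2 difference over the root of F. The scripts were tested on simulated data. DESeq2 1.42.0, limma 3.58.1 on log2(TPM + 1) or log2(TPM + 0.1), other scalings and filters, a replicate block, a fat marker covariate and leaving out each library were alternatives. Summing rows of one symbol and DESeq2 with libraries left out were added after seeing the data. No pair of libraries agreed within sampling noise (chi-square per gene 12.19 to 110.3).

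Values are given for every called collagen, the 3 most abundant of each class, those within 20 Mb of Mir26b, and up to 4 members of lowest p from each partner list. The members and lists were chosen with earlier results of these data known. Coordinates are from GENCODE vM21 (GRCm38) and sequences from that genome or RefSeq GRCm38.p6.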

Additional observations from a re-analysis of the deposited data

How the results depend on the processing

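The 24 collagen genes given with every library kept their direction under all alternatives. Col8a2 did not, at -0.06 to 0.11 with a library left out, nor did Col11a1, at 0.16 by edgeR and -0.06 and -0.20 by limma. Col9a3, Col13a1, Col20a1, Col27a1 and Col28a1 also had values on both sides of 0 with a library left out in edgeR. DESeq2 called 11 higher collagens, limma on log2(TPM + 1) 3 (2.65% of all rows), and the fat marker covariate 1 higher and 6 lower, against 5 and 11. With edgeR, leaving out each library in turn gave 0 to 12 higher and 0 to 14 lower collagens, and leaving one out also removes a residual degree of freedom. DESeq2 with each left out gave 5 to 14 higher and 11 to 14 lower. The partner lists held 23, 15, 13, 12 and 16 tested genes. Of them edgeR called 8 higher and 12 lower, against 6.50% and 3.84% of all rows. DESeq2 called 15 higher, against 13.0% of all rows. Its lower calls (8.46% of all rows) were 4 folding and secretion, 2 propeptide cleavage and cross-linking, 4 receptor and 8 basement membrane partner genes. Limma called 2 higher and 6 lower with a pseudocount of 1 (2.65% and 1.44% of all rows). With 0.1 it called 3 higher and 7 lower (3.69% and 1.73%). The fat marker covariate gave 0 higher and 2 lower (0.638% and 0.552%). With libraries left out in edgeR, the partner counts ranged from 0 to 20 higher and 0 to 18 lower. Over all rows edgeR then called 0% to 17.2% higher and 0% to 11.4% lower. In DESeq2 the partner counts ranged from 10 to 22 higher and 12 to 20 lower. Over all rows DESeq2 then called 7.30% to 17.7% higher and 4.91% to 14.4% lower. Counting only TACTTGA left 5 collagens with a seed match, against 11. Over all rows edgeR called 1131 higher and 667 lower, DESeq2 2086 and 1357, and scaling by library size alone 1476 and 447.

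Libraries of the same replicate number had deviations from their group means that correlated at -0.092, 0.234 and 0.0757, so the numbers were not taken to pair them. Knockout replicate 1 correlated best with control replicate 3, at 0.116. The replicate block gave 8 higher and 12 lower collagens and 13 higher and 12 lower partners, against 7.45% and 4.02% of all rows. The class shares moved by less than the spread between replicates under each alternative run. Collagens under 1 TPM in both groups rest on few counts, so their differences carry large standard errors.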
